A study of Mus musculus with 20 samples.

Results

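The transcripts described here encode 8 Tudor-domain proteins of the germ granules of male germ cells: Tdrd1, Tdrd5, Tdrd6, Tdrd7, Tdrd9, Tdrkh, Stk31 and Rnf17. They were taken by symbol from the 23366 genes of the RNA count table, and all 8 were among the 16872 genes that passed a filter on low counts. Each was followed over 5 stages of C57Bl/6J wild-type mice with 2 biological replicates per stage, 10 RNA libraries in all. The first 3 stages were whole testes of newborn and juvenile mice (day 1, day 3 and day 7), and the others leptotene/zygotene and pachytene spermatocytes enriched from adults of 70 to 80 days by the STA-PUT method, in which cells settle at unit gravity and part by size. Per the labels, microscopy put pachytene cells at about 90% purity and leptotene/zygotene cells above 90%, with no sign of somatic cells. No group carried a mutation or a treatment, and the step from day 7 to leptotene/zygotene goes from a mixed tissue of juveniles to enriched cells of adults. RNA was bulk, so fewer cells of a type and less RNA per cell cannot be told apart.

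Tudor domains are protein folds that bind methylated arginine or lysine, and in germ cells many of them bind the dimethylated arginines near the start of PIWI proteins. PIWI proteins carry piRNAs, small RNAs that silence transposons in fetal and newborn germ cells and are made in large amounts again in pachytene spermatocytes. The proteins and RNAs of this pathway gather in cytoplasmic granules, first as intermitochondrial cement and later, in round spermatids, as the chromatoid body, which Tudor proteins hold together. Tdrd1 binds PIWI proteins as a scaffold of these granules. Tdrd9 is a helicase that acts with the PIWI protein Miwi2 in transposon silencing. Tdrkh sits on mitochondria and helps trim piRNA ends. Tdrd5, Tdrd6 and Tdrd7 are needed to form the chromatoid body. Rnf17 couples a RING finger to Tudor domains in granules of its own, and Stk31 pairs a Tudor domain with a kinase-like domain.

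The start-site sequences are shown because Tdrd1, Tdrd5, Tdrkh and Stk31 rose from leptotene/zygotene to pachytene. The motif searched is that of A-MYB, encoded by Mybl1, a transcription factor of pachytene spermatocytes that is known to act on piRNA pathway genes. Mybl1 itself passed the test both from day 7 to leptotene/zygotene (log2 1.5 ± 0.27, edgeR adjusted p = 0.00061) and from there to pachytene (1.05 ± 0.27, 0.0225). In the same fit these 4 transcripts did not pass at the former step. Whether A-MYB has a part in their rise was not tested. RefSeq windows of 300 bases on GRCm38.p6, from 250 bases before to 50 after the start of a transcript, were matched by symbol for 6 of the 8 genes, 11 windows in all. Tdrd6 and Rnf17 were not matched. Below are the 200 bases before the start of the first listed transcript of the 4 genes and, for contrast, of Tdrd7. Tdrd7 rose from day 7 to leptotene/zygotene and was not called from there to pachytene. The leptotene/zygotene libraries also held high levels of spermatid markers, given below, and the part of spermatid RNA in these steps was not tested. The count table was made on another build, so these coordinates serve only the sequences. Capitals mark the letters CAACNG or TAACNG, forms of the MYB core, on either strand, and all 5 stretches lie upstream of the transcribed part.
Tdrd5 (chr1:156303349-156303548, minus strand): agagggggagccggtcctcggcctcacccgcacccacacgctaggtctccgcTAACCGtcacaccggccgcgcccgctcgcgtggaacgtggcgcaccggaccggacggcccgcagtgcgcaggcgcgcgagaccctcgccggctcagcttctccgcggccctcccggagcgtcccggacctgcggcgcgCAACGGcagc
Tdrkh (chr3:94413044-94413243, plus strand): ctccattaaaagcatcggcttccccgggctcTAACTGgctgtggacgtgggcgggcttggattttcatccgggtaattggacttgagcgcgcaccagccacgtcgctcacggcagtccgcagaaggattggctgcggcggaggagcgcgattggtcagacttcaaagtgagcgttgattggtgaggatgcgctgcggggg
Tdrd1 (chr19:56826009-56826208, plus strand): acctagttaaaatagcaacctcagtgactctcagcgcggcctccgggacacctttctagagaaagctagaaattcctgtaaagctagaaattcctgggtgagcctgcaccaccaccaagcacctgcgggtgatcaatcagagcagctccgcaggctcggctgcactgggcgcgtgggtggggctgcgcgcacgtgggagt
Stk31 (chr6:49395339-49395538, plus strand): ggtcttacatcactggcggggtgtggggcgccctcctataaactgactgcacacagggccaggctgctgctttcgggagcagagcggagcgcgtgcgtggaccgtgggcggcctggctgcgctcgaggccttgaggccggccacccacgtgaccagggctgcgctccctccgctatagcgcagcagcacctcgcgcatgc
Tdrd7 (chr4:45965135-45965334, plus strand): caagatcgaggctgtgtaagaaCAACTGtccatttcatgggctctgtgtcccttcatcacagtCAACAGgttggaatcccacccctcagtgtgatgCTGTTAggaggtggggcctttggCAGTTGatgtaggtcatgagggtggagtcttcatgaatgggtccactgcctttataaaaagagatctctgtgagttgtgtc
Tdrd5 held a match 148 and another 10 bases before its start, Tdrkh held 1 match 169 bases before, and the stretch of Tdrd7 held 4. The windows of Tdrd1 (3 starts), Stk31 (2 starts) and Tdrd9 (1 start) held none. In all, 4 of the 11 windows (3 of the 6 genes) had at least 1 match, and 49.7% of all 32851 windows of the same length had one. The letters TGACGTCA, the full cAMP response element, were in none of the 6 genes and in 1.79% of all windows. These matches describe letters only and show no binding.

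Reads on genes numbered 3597360 to 22181395 per library, fewest in leptotene/zygotene replicate 1, and levels are CPM (counts scaled to library size) on TMM-scaled libraries. Markers were summed to check the labels. Sertoli markers summed to 1479 and 1557 CPM at day 7 and to 7.01 to 89.5 CPM in the 4 enriched libraries, and spermatogonial markers to 597 and 540 against 23.8 to 68.9 CPM. The leptotene/zygotene libraries went against their label in another way. All 10 spermatid markers were present in them and summed to 67557 and 70926 CPM, against 9087 and 5609 CPM in pachytene. Prm2, a protamine that packs sperm DNA, was at 21727 and 21764 CPM in leptotene/zygotene and at 2560 and 1390 CPM in pachytene. The 10 leptotene/zygotene markers summed to 171 and 148 CPM at day 7, to 724 and 1215 CPM in the fraction of that name and to 918 and 1758 CPM in pachytene. Of these markers 6 were called higher in that fraction than at day 7, 1 was called lower and 3 did not pass. Stra8 was at 52.1 and 37.6 CPM at day 7 and at 7.78 and 6.61 CPM in that fraction. Dmc1 was at 9.92 and 10.1 CPM and then at 9.72 and 4.91 CPM. Syce1 alone held 368 and 710 CPM of the sum in that fraction. The 9 pachytene markers summed to 74.2 and 74.3 CPM at day 7. They summed to 18855 and 20439 CPM in leptotene/zygotene, more than the 13451 and 14399 CPM in pachytene. Single markers differed in direction, and 4 of the 9 had a positive log2 fold change from leptotene/zygotene to pachytene. Pgk2 was at 6095 and 3945 CPM in leptotene/zygotene and 1740 and 938 CPM in pachytene, and H1fnt at 2655 and 2210 against 392 and 206. Piwil1 went the other way, at 137 and 120 against 895 and 1466 CPM. The part of spermatid RNA in the results below was not tested. For the 8 transcripts, pachytene against day 7 is given as the comparison of 2 stages that leaves leptotene/zygotene out. Its calls were also made in a fit without the leptotene/zygotene libraries.

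**Figure D1:**
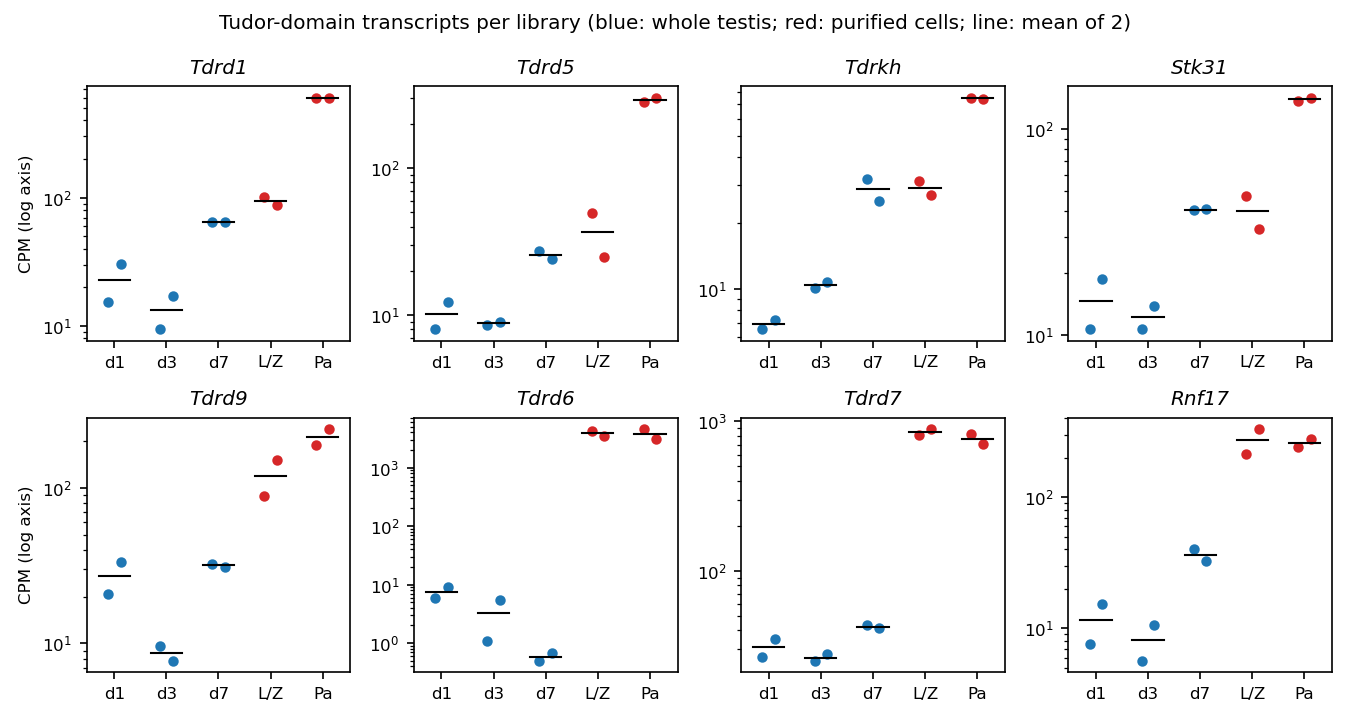
CPM (log axis, a different range in each panel) of the 8 Tudor-domain transcripts in each library, by stage (d1, d3 and d7: whole testis at days 1, 3 and 7; L/Z: leptotene/zygotene; Pa: pachytene). Points are the 2 replicates of a stage and lines their mean; the top row rises at the last step, and for Tdrd6, Tdrd7 and Rnf17 the L/Z and Pa points overlap.

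Tdrd1 stood at 15.5 and 30.4 CPM in the testes of day 1, at 9.42 and 17.2 in those of day 3 and at 64.7 and 64.5 in those of day 7. Leptotene/zygotene cells had 101 and 87.6 CPM and pachytene cells 595 and 603. Days 1 and 3 overlapped, day 7 and leptotene/zygotene both stood above them without overlap, and pachytene stood above every other library. Tdrd5 followed the same order, at 8.01 and 12.3, 8.59 and 9.03, 27.4 and 24.1, 49.1 and 24.9, and 280 and 301 CPM. Its leptotene/zygotene replicates differed from each other and enclosed 1 of the day 7 values, so that only days 1 and 3 below and pachytene above were apart from them.

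Tdrkh stood at 6.53 and 7.24 CPM in the day 1 testes, at 10.1 and 10.7 in the day 3 testes and at 32 and 25.3 in the day 7 testes. Leptotene/zygotene cells had 31.1 and 26.8 CPM and pachytene cells 75.2 and 74.4. It was the only one of the 8 whose lowest stage was day 1 and whose day 3 replicates both stood above those of day 1. Stk31 was at 10.6 and 18.6, 10.6 and 13.8, 40.3 and 40.8, 47.2 and 32.8, and 138 and 143 CPM in the same order. For both genes the day 7 and leptotene/zygotene libraries overlapped, and pachytene stood apart above them.

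Tdrd9 stood at 20.8 and 33.3 CPM in the day 1 testes, at 9.65 and 7.73 in the day 3 testes and at 32.6 and 31.1 in the day 7 testes. Leptotene/zygotene cells had 88 and 151 CPM and pachytene cells 187 and 238. Day 3 was its low point, below every library of days 1 and 7, and the steps after day 7 did not overlap. Rnf17 was at 7.64 and 15.3, 5.66 and 10.6, 40 and 32.8, 213 and 331, and 241 and 278 CPM. Its pachytene values lay between those of the leptotene/zygotene replicates.

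Tdrd6 had the widest range of the 8, with a highest stage mean 6596 times the lowest, against 10.9 to 45.1 times for the other 7. The testes held 5.79 and 9.23 CPM at day 1, 1.10 and 5.45 CPM at day 3 and 0.496 and 0.675 CPM at day 7. Leptotene/zygotene cells had 4287 and 3441 CPM and pachytene cells 4547 and 3036. The day 7 values rest on 9 and 11 reads. The spermatocyte fractions overlapped each other and were far above any testis library. Tdrd7 was at 26.6 and 35.2, 25 and 27.7, 43.4 and 41.4, 808 and 888, and 825 and 706 CPM, so that it too had overlapping spermatocyte fractions, but over testis levels of 25 to 43.4 CPM. Levels are not compared between genes here, since no transcript lengths were used.

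From day 1 to day 3 none of the 8 transcripts passed the test at an adjusted p of 0.05 (edgeR quasi-likelihood F test, Benjamini-Hochberg), and 0% of the genes tested did. At an unadjusted p under 0.05 there were 1097 genes over the whole table, and Tdrd9 and Tdrkh among the 8. DESeq2 called 75 genes over the whole table, Tdrd9 among them. Tdrd9 differed by a log2 fold change of -1.63 ± 0.34 (SE, n = 2 per stage throughout; edgeR adjusted p = 0.333), and DESeq2 gave -1.61 (adjusted p = 0.00200). The log2 fold changes of the 8 had a median of -0.401, against -0.0042 over all genes.

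From day 3 to day 7 the juvenile testis gains its first differentiating spermatogonia and cells that prepare for meiosis, and 5 of the 8 transcripts rose, when 0.931% of all genes tested rose (1.49% were called in either direction and 0.563% fell). Tdrd1 rose 4.90-fold (log2 2.29 ± 0.37, edgeR adjusted p = 0.0256), Rnf17 4.54-fold (2.18 ± 0.41, 0.0394) and Tdrd9 3.64-fold (1.87 ± 0.34, 0.0354). Stk31 rose 3.33-fold (1.74 ± 0.32, edgeR adjusted p = 0.0362) and Tdrkh 2.76-fold (1.47 ± 0.24, 0.0263). Tdrd5 had a log2 fold change of 1.55 ± 0.34 (0.0609), Tdrd7 of 0.69 ± 0.24 (0.222) and Tdrd6 of -2.38 ± 0.75 (0.166), and none of these passed. The median over the 8 was 1.64, against -0.0227 over all genes. These calls were close to the threshold. None of the 8 were called without day 7 replicate 1 or without day 7 replicate 2, only Tdrd1 without either day 1 library or without day 3 replicate 2, and only Tdrd6, as lower (log2 -3.29), without day 3 replicate 1. DESeq2 called all 8, 7 higher and Tdrd6 lower, and 965 genes over the whole table, 411 of them higher. The count over the whole table was as unsteady, from 252 genes to 0 without either day 7 library and to 2126 with the testis stages only.

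The spermatogonial markers summed to 168 and 209 CPM on day 3 and to 597 and 540 CPM on day 7, and those of leptotene/zygotene to 26.4 and 34.1 and then to 171 and 148 CPM. Dmrt1 alone held 117 and 123 CPM of the spermatogonial sums on day 3 and 269 and 248 CPM on day 7. All 9 spermatogonial markers had a positive log2 fold change (median 2.24), and 2 of them passed the test. Of the 10 leptotene/zygotene markers 3 rose. Stra8, which starts meiosis in response to retinoic acid, went from 1.63 and 3.25 to 52.1 and 37.6 CPM. The share of these cells in the rise of the 5 Tudor-domain transcripts was not tested.

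Day 7 against day 1 shares its day 7 libraries with the step above. Tdrkh rose 4.15-fold (log2 2.05 ± 0.25, edgeR adjusted p = 0.00689) and Stk31 2.76-fold (1.46 ± 0.32, 0.0417), and Tdrd6 fell by 3.67 ± 0.74 on the log2 scale (0.0335). That is 3 of the 8 called, when 3.36% of all genes tested were called, 1.08% as higher and 2.28% as lower. Tdrd1 (1.49, edgeR adjusted p = 0.0590), Rnf17 (1.65, 0.0601) and Tdrd5 (1.33, 0.0662) were just outside the threshold, and they were called along with the other 3 by DESeq2 and in the fit without the leptotene/zygotene libraries, 6 of the 8 each time, when 1521 and 1258 genes were called over the whole table in place of 567. None of the 8, and no gene of the table, was called once a day 1 or a day 7 library was left out, and the call of Stk31 was also lost without either day 3 library.

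The fall of Tdrd6 ran beside the traces of spermatid transcripts in the young testis. The 10 spermatid markers summed to 37.7 and 38.2 CPM in the day 1 testes, to 3.76 and 29.3 in the day 3 testes, and to 2.59 and 3.38 in the day 7 testes. Day 3 replicate 1, low in these markers, was also the day 3 library with the low Tdrd6 value. Spermatids do not exist at these ages. Prm2 was at 8.99 and 9.31 CPM at day 1, at 0.0333 and 6.59 CPM at day 3, and had 0 and 1 read at day 7. Whether the Tdrd6 reads of days 1 and 3 come with these traces was not tested.

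**Figure D2:**
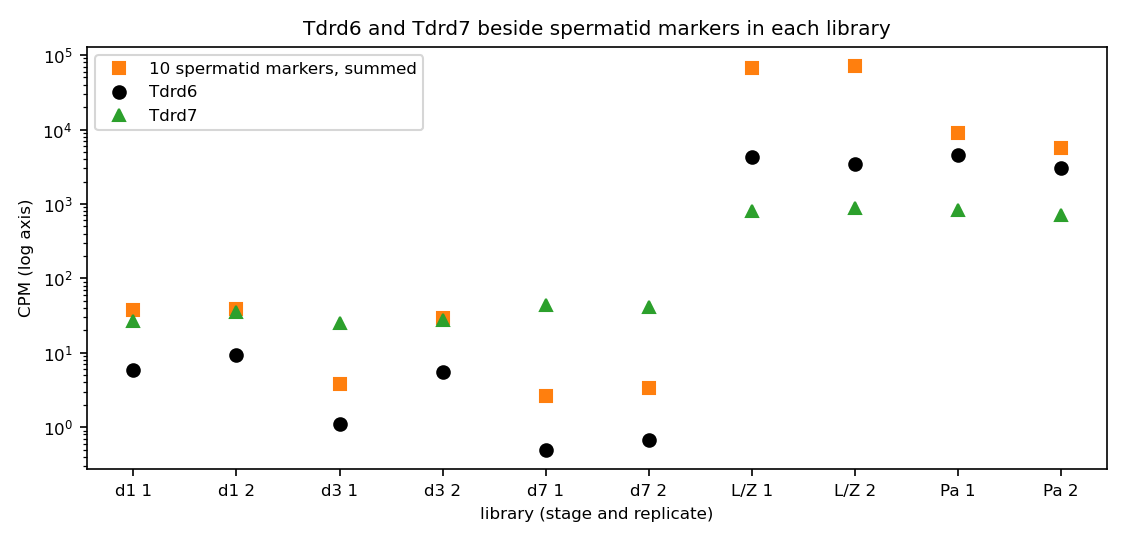
CPM (log axis) of Tdrd6, Tdrd7 and the sum of 10 spermatid markers in each of the 10 libraries (d1, d3 and d7: whole testis; L/Z: leptotene/zygotene; Pa: pachytene; 1 and 2: replicates). In the testis libraries Tdrd6 is low where the markers are low, from 0.496 to 9.23 CPM, and Tdrd7 is not; in the enriched cells both transcripts overlap between L/Z and Pa while the markers are lower in Pa.

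From day 7 to leptotene/zygotene the transcripts split into 4 that rose and 4 that did not pass. This step changes the tissue as well as the stage, and 78.5% of all genes tested were called, 36.5% as higher and 42% as lower, so 4 of 8 is near the background. Tdrd6, a chromatoid body protein, rose by 12.67 ± 0.94 on the log2 scale (6511-fold, edgeR adjusted p = 1.94e-06) and Tdrd7 by 4.32 ± 0.28 (20-fold, 8.77e-07). Rnf17 rose 7.49-fold (2.91 ± 0.42, edgeR adjusted p = 0.000126) and Tdrd9 3.77-fold (1.91 ± 0.34, 0.000494). Tdrd1 and Tdrd5 had log2 fold changes of 0.54 ± 0.36 and 0.49 ± 0.34 (edgeR adjusted p = 0.186 and 0.208). Tdrkh was at 0.01 ± 0.24 (0.983) and Stk31 at -0.04 ± 0.32 (0.921). The median was 1.23 over the 8 and -0.308 over all genes. The spermatid markers summed to 2.59 and 3.38 CPM at day 7 and to 67557 and 70926 CPM here. In pachytene, where they summed to 9087 and 5609 CPM, Tdrd6, Tdrd7 and Rnf17 were at levels that overlapped those of leptotene/zygotene. The part of spermatid RNA in the 4 rises was not tested.

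The scaling of the libraries matters at this step. Plain library sizes moved the median of all genes by -1.41 on the log2 scale, and the share of calls that were higher from 46.5% to 29.6%. With them Tdrkh (log2 -1.37, edgeR adjusted p = 0.000665) and Stk31 (-1.40, 0.00356) were called lower, and the call of Tdrd9 was lost (0.51, 0.150). The calls of Tdrd6, Tdrd7 and Rnf17 held under each alternative tried, and no call was lost by leaving out 1 library. Without leptotene/zygotene replicate 2, Tdrd5 was called as well (log2 0.91), and Tdrd1 was called by DESeq2 (0.86, adjusted p = 0.0454), with median-ratio factors and in a fit of these 2 stages alone.

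From leptotene/zygotene to pachytene the other 4 transcripts rose. Tdrd5 rose 8.05-fold (log2 3.01 ± 0.36, edgeR adjusted p = 0.00106), Tdrd1 6.38-fold (2.67 ± 0.37, 0.00187), Stk31 3.56-fold (1.83 ± 0.32, 0.00473) and Tdrkh 2.60-fold (1.38 ± 0.24, 0.00479). For comparison, 22.2% of all genes tested were called, 9.03% as higher and 13.2% as lower. Tdrd9 had a log2 fold change of 0.83 ± 0.33 (edgeR adjusted p = 0.101), with libraries that did not overlap, and it was called without leptotene/zygotene replicate 2 (1.28), with upper-quartile factors (0.95, 0.0406) and with a replicate block in the spermatocyte stages (0.86, 0.0087). Tdrd6, Tdrd7 and Rnf17 were at -0.03 ± 0.56, -0.15 ± 0.24 and -0.07 ± 0.39 (edgeR adjusted p = 1, 0.723 and 0.934). The median was 1.10 over the 8 and -0.0623 over all genes.

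All 10 spermatid markers were lower in pachytene than in leptotene/zygotene in their mean level, and 6 of them passed the test, with a median log2 fold change of -3.29 over the list. Among the 9 pachytene markers 3 rose and 1 fell, with a median log2 fold change of -0.176. Their sum was 18855 and 20439 CPM in leptotene/zygotene and 13451 and 14399 CPM in pachytene. With plain library sizes the share of calls that were higher at this step went from 40.7% to 77.1%, and Tdrd9 was called too (log2 1.41, edgeR adjusted p = 0.00982). In a fit of these 2 stages alone Tdrkh missed the threshold (1.51, 0.0524), and against a minimum change of 2-fold Tdrd1 and Tdrd5 were still called, 2 of the 8.

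Pachytene against day 7, which leaves the leptotene/zygotene libraries aside, gave rises in all 8 transcripts, while 35.1% of all genes tested rose and 40.1% fell (75.2% called in all). This comparison too goes from a mixed tissue of juveniles to enriched cells of adults. All 10 spermatid markers were also called higher here, with a median log2 fold change of 12.1. They summed to 2.59 and 3.38 CPM at day 7 and to 9087 and 5609 CPM in pachytene. The part of spermatid RNA in the 8 rises was not tested. Tdrd6 rose by 12.64 ± 0.94 on the log2 scale, Tdrd7 by 4.17 ± 0.27, Tdrd5 by 3.50 ± 0.36 and Tdrd1 by 3.21 ± 0.38 (edgeR adjusted p from 1.3e-06 to 4.05e-05). Rnf17 rose by 2.83 ± 0.41, Tdrd9 by 2.74 ± 0.35, Stk31 by 1.80 ± 0.32 and Tdrkh by 1.38 ± 0.24 (edgeR adjusted p from 6.16e-05 to 0.000554). The 8 rises were called as well without the leptotene/zygotene libraries in the fit. With plain library sizes, which took the share of calls that were higher from 46.7% to 33.9%, Tdrkh missed the threshold (0.56, edgeR adjusted p = 0.0588). The median was 3.02 over the 8 and -0.272 over all genes.

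**Figure D3:**
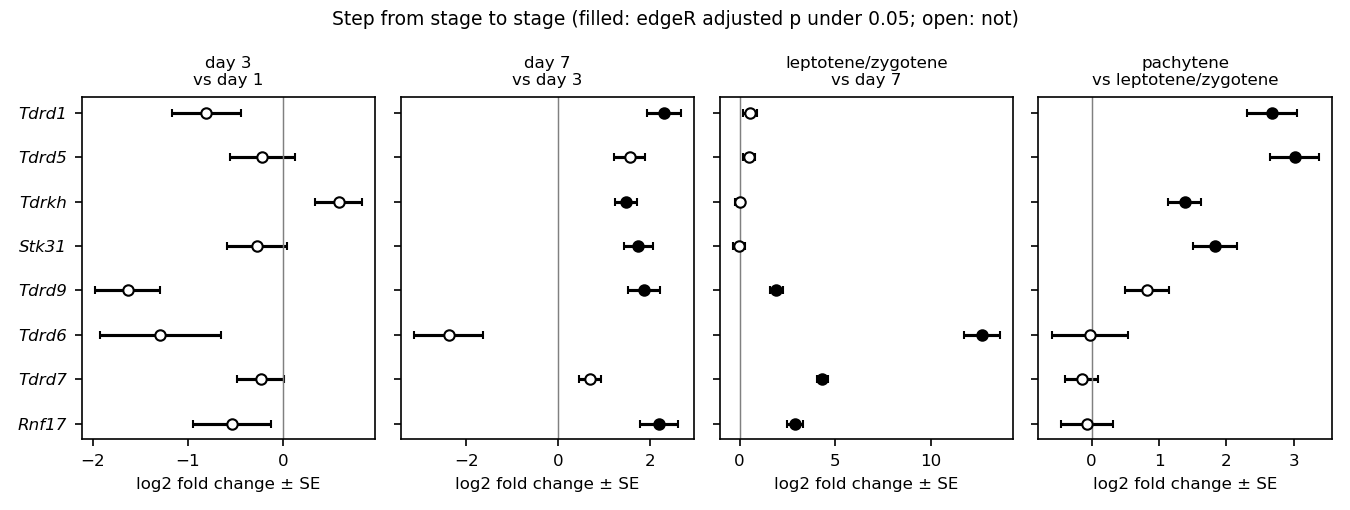
Log2 fold change with its standard error for each Tudor-domain transcript at each step between consecutive stages (n = 2 libraries per stage); the scale differs between panels. Filled points passed the edgeR test: 0 at the first step, 5 at the second, and 4 at each of the others, where Tdrd6, Tdrd7, Tdrd9 and Rnf17 are filled at the third and Tdrd1, Tdrd5, Tdrkh and Stk31 at the last.

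Stage means were also set on the linear CPM distance from day 7 to pachytene. The leptotene/zygotene mean of Tdrd1 lay 5.52% of the way, of Tdrd5 4.24%, of Tdrkh 0.674% and of Stk31 -0.536%. Tdrd9 lay 48.3% of the way, Tdrd6 102%, Rnf17 106% and Tdrd7 111%. These shares restate the levels on the TMM scale, would differ on the log2 scale of the fold changes, and carry no test.  By the Euclidean distance of centred log2 CPM, the closest pairs were Tdrkh and Stk31 (1.12), Tdrd1 and Tdrd5 (1.29), and Tdrd7 and Rnf17 (1.96). Tdrd6 was far from every other member, with 10.1 to its nearest, Tdrd7.

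Among the 16864 other genes, the nearest to both Tdrd1 and Tdrd5 were Tex101, a surface protein of germ cells (distances 1.22 and 0.871), and Mcmdc2, which acts in meiotic recombination (1.5 and 1.36). For Stk31 they were Rbm46, a germ cell RNA-binding protein (0.824), and Hus1b (0.872), and for Tdrkh Hus1b (0.832) and Pcgf5 (0.984). Rnf17 was nearest to Ddx4, the germ granule helicase VASA (0.544), and Stag3, a meiotic cohesin (0.816). Tdrd9 was nearest to Tspan33 (0.874) and Fbxo15 (1.06), Tdrd7 to Zbtb3 (0.469) and Zcchc2 (0.523), and Tdrd6 to 4930544G11Rik (1.10) and March10 (1.18). All of these distances are over the same 10 libraries, which share tissue, depth and scaling. Some of these genes had few reads in some libraries, so their distances rest in part on the prior count of 2. Hus1b was at 0.246 and 0.431 CPM at day 1, and 4930544G11Rik at 0 and 0.0614 CPM at day 7. Ranked by Pearson's r instead, both names changed for Tdrd1, Tdrd5, Tdrd6 and Tdrd7, and 1 changed for Tdrkh and Stk31.

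Of 25 other genes of the piRNA pathway and germ granules, 24 were matched and tested. From day 3 to day 7, 7 of them rose and 0 fell (0.931% and 0.563% of all genes), with a median log2 fold change of 1.74, against -0.0227 over all genes. Named by the largest changes were Henmt1, which methylates piRNA ends (3.17 ± 0.36, edgeR adjusted p = 0.00921), Mov10l1, the helicase that starts piRNA processing (2.25 ± 0.35, 0.0225), Piwil1 (2.22 ± 0.35, 0.0225) and Fkbp6, a co-chaperone (2.19 ± 0.31, 0.0164). The count was 0 without day 3 replicate 1, without day 7 replicate 1 and without day 7 replicate 2, and 2 without any 1 of the other libraries of days 1 and 3. From day 1 to day 3, 0 of the 24 were called, with 4 at an unadjusted p under 0.05.

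From day 7 to leptotene/zygotene 13 of the 24 rose and 7 fell, and to pachytene 14 rose and 5 fell, beside the 8 of 8 Tudor-domain transcripts that rose to pachytene. Over all genes 36.5% rose and 42% fell at the former step and 35.1% and 40.1% at the latter. Their median log2 fold changes were 1.45 and 2.03, against -0.308 and -0.272 over all genes. Piwil1 rose by 7.90 ± 0.39 from day 7 to pachytene (edgeR adjusted p = 5.42e-07). Ybx2, which binds stored mRNA, rose by 9.65 ± 0.59 and 9.06 ± 0.58 on the log2 scale, Ddx25, a chromatoid body helicase, by 5.82 ± 0.47 and 5.58 ± 0.46, and Mael, a piRNA factor, by 4.88 ± 0.49 and 4.62 ± 0.48 (edgeR adjusted p at most 1.8e-05). Piwil4, which encodes Miwi2, had 195 reads at day 7 and 2 in leptotene/zygotene, a ratio of 0.0293 (exact interval at 95%, 0.00353 to 0.107, counting error only), and 3 in pachytene, a ratio of 0.0435 (0.00889 to 0.129). From leptotene/zygotene to pachytene 7 rose and 1 fell, against 9.03% and 13.2% of all genes. Piwil1 (3.20 ± 0.31, edgeR adjusted p = 0.000757), Pld6, a mitochondrial nuclease (2.27 ± 0.27, 0.00108), and Piwil2 (1.99 ± 0.38, 0.00646) rose, and Tex15 fell by 2.05 ± 0.45 (0.0122). From day 7 to pachytene Pld6 rose by 3.67 ± 0.29 (edgeR adjusted p = 3.08e-06) and Piwil2 by 1.51 ± 0.37 (0.00405), and Tex15 was at -0.02 ± 0.44 (0.971). The median over the 24 was 0.864, against -0.0623 over all genes, and without pachytene replicate 2 the count of calls was 4.

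The PIWI partners had different courses. Piwil1, a PIWI protein of pachytene piRNAs, was at 5.40 and 4.48 CPM in the day 7 testes, at 137 and 120 CPM in leptotene/zygotene cells and at 895 and 1466 CPM in pachytene cells. Piwil2 was at 159 and 141, 127 and 89.5, and 470 and 385 CPM. It rose from day 3 to day 7 (log2 2.16 ± 0.38, edgeR adjusted p = 0.0318) and again from leptotene/zygotene to pachytene. Ddx4 was at 109 and 96.8, 800 and 1054, and 938 and 918 CPM. It rose from day 3 to day 7 (1.90 ± 0.34, edgeR adjusted p = 0.0348) and from day 7 to leptotene/zygotene (3.17 ± 0.36, 2.62e-05). Mybl1 was at 29.1 and 25.5, 77.3 and 77.3, and 162 and 158 CPM, and it rose from day 7 to pachytene by 2.55 ± 0.28 (edgeR adjusted p = 2.47e-05).

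In day 7 against day 1, 6 of the 24 rose and 1 fell (1.08% and 2.28% of all genes), with a median log2 fold change of 1.27 against 0 over all genes. Mov10l1 (log2 2.49 ± 0.36, edgeR adjusted p = 0.0122), Tdrd12 (2.26 ± 0.42, 0.0270) and Fkbp6 (2.09 ± 0.31, 0.0139) rose, and Dnmt3l, a cofactor of DNA methylation in perinatal germ cells, fell by 3.76 ± 0.84 (0.0443). The count was 0 once a day 1 or a day 7 library was left out. Of 12 other Tudor-domain genes, mostly of somatic or general function, 11 were matched. Tdrd12, a piRNA factor that stands in both lists, was the only one called from day 3 to day 7 (log2 1.98 ± 0.39, edgeR adjusted p = 0.0461) and from day 1 to day 7.

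From day 7 to leptotene/zygotene 5 of these 11 rose and 5 fell, near the 36.5% and 42% of all genes that did. Akap1, a mitochondrial anchor protein, rose by 5.91 ± 0.36 on the log2 scale (edgeR adjusted p = 6.6e-07), and Phf19, a Polycomb cofactor, had 255 reads at day 7 and 3 in leptotene/zygotene (ratio 0.0336, exact interval 0.00689 to 0.0994). From leptotene/zygotene to pachytene 2 rose and 1 fell (9.03% and 13.2% of all genes), with Lbr, a nuclear envelope protein, higher (2.24 ± 0.27, edgeR adjusted p = 0.00107) and Akap1 lower (-2.89 ± 0.31, 0.00078). From day 7 to pachytene 4 rose and 3 fell (35.1% and 40.1% of all genes), with Phf1, another Polycomb cofactor, higher (3.38 ± 0.53, edgeR adjusted p = 0.000268) and Phf19 at 2 reads (ratio 0.0222, 0.00267 to 0.0809). Their median log2 fold change at that step was 0.27, against 3.02 for the germ granule transcripts, and the difference between the lists was not tested.

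**Figure D4:**
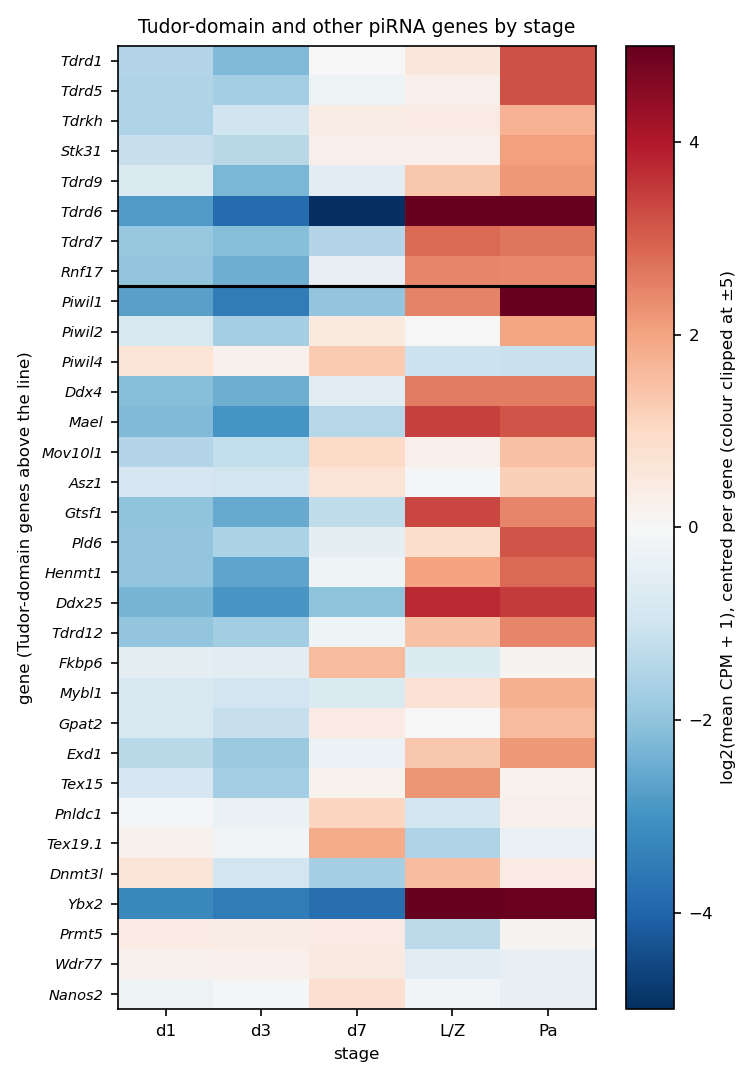
Stage means as log2(CPM + 1), centred on each gene's mean over the 5 stages and coloured from -5 to 5, for the 8 Tudor-domain transcripts (above the line) and the 24 other piRNA pathway genes. Tdrd1, Tdrd5, Tdrkh, Stk31 and Piwil2 are reddest in the last column, as are others such as Tdrd9, Piwil1, Pld6, Henmt1 and Mybl1. Piwil4 and Fkbp6 are pale or blue in both columns of enriched cells.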

How the data were processed

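The authors deposited raw counts of reads per gene. The submitters' processing notes name the build mm9, HTSeq 0.6.1, BWA 0.7.8, edgeR 3.6.8 and Bowtie 0.12.7. The role of each tool, and the use of strand in counting, were not stated there, so a gene cannot be told apart from one that overlaps it or runs antisense to it. TRIzol was used to extract RNA and TruSeq kits to make libraries, per the labels' protocols. The 5 summary rows of HTSeq held 44.7% to 64.5% of the reads per library and were left out. The 10 small RNA libraries were not used here.

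Genes were kept by filterByExpr (minimum count 10), scaled by TMM and fitted over all 10 libraries with edgeR 4.0.16 in R 4.3.3 (quasi-likelihood F test, two-sided, 5 residual degrees of freedom, Benjamini-Hochberg over 16872 genes at 0.05). A standard error is the size of the log2 fold change divided by the root of its F value. The p-values measure the spread between the 2 biological replicates and share 1 estimate over the stages. That spread was unequal. Over the genes tested, the log2 difference between replicates had an SD of 0.421 at day 1, 0.633 at day 3 and 0.304 at day 7. It was 1.17 in leptotene/zygotene and 0.968 in pachytene. Tests between testis stages therefore also draw on the wider spread of the enriched cells. Nearest genes used log2 CPM with a prior count of 2. Alternatives were DESeq2 1.42.0, 3 other scalings, no filter, fewer stages, a 2-fold minimum, a replicate block and each library left out. The members and gene lists were chosen with earlier results of these data known. Named were the 8 members, 6 fixed genes, up to 4 pathway and 2 other Tudor-domain genes per comparison with the largest change past the test, and 2 nearest genes per member; marker genes named were chosen after their values were seen.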

Additional observations from a re-analysis of the deposited data

How the results depend on the processing

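With 2 libraries per stage and 1 estimate of the spread shared with the enriched cells, the steps among the testis stages stood near the threshold. From day 3 to day 7 the count of Tudor-domain transcripts called went from 5 to 8 with DESeq2 and to 0 against a 2-fold minimum, and from 0 to 6 over the fits that left out 1 library each. Day 7 against day 1 went from 3 to 6 with DESeq2, without a low-count filter, with the testis stages only and without the leptotene/zygotene libraries, to 7 with only the stages compared, to 0 against a 2-fold minimum, and from 0 to 6 over the fits that left out 1 library each. Day 3 against day 1 went from 0 to 1 with DESeq2, and pachytene against leptotene/zygotene from 4 to 2 against a 2-fold minimum. The other piRNA pathway genes called from day 3 to day 7 went from 7 to 14 with DESeq2, 16 with only the stages compared or the testis stages only, 13 without the leptotene/zygotene libraries and 1 against a 2-fold minimum (0 to 12 with 1 library left out). Those of day 7 against day 1 went from 7 to 19 with only the stages compared, 12 with the testis stages only and 0 against a 2-fold minimum (0 to 9 with 1 library left out), and those of pachytene against leptotene/zygotene from 8 to 15 with plain library sizes, 3 with only the stages compared and 2 against a 2-fold minimum (4 to 9 with 1 library left out). Calls over the whole table moved too. From day 3 to day 7 they went from 252 to 965 with DESeq2, 1019 with only the stages compared, 2126 with the testis stages only, 26 against a 2-fold minimum and 0 to 635 with 1 library left out. For day 7 against day 1 they went from 567 to 1521, 6798, 2962, 62 and 0 to 1143 likewise. The causes were not tested. The call of Stk31 was lost with upper-quartile factors from day 3 to day 7 (1.71) and, in day 7 against day 1, with those and with median-ratio factors (1.41 each).

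The replicate differences of leptotene/zygotene and pachytene correlated (r = 0.641), those of the other 9 pairs of stages gave r from -0.108 to 0.0182, and the labels state no shared source, so the numbers were not taken as pairs. With the replicate number as a block, the count for day 7 against day 1 was 5. A replicate block in the spermatocyte stages only, chosen after seeing the data, gave 1 for day 3 against day 1, 6 for day 7 against day 1 and 5 for pachytene against leptotene/zygotene, where it added Tdrd9 (log2 0.864, edgeR adjusted p = 0.0087). Over the whole table it called 85, 2946 and 6366 genes at these steps, in place of 0, 567 and 3744. It also called 17, 15 and 15 pathway genes for day 7 against day 3, day 7 against day 1 and pachytene against leptotene/zygotene.

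Directions turned only for log2 fold changes that had not passed the test. From day 7 to leptotene/zygotene these were, with plain library sizes, Tdrd1 (-0.835), Tdrd5 (-0.867) and Tdrkh (-1.37), Tdrkh with upper-quartile factors (-0.33), and Stk31 with DESeq2 (0.291), median-ratio factors (0.324), only the stages compared (0.137) and the replicate block in the spermatocyte stages (0.043). From leptotene/zygotene to pachytene they were Tdrd6 (0.0253 with upper-quartile factors, 0.507 with plain sizes, 0.0911 with only the stages compared), Rnf17 (0.0426, 0.504 and 0.087 likewise) and Tdrd7 (0.406 with plain sizes). With 1 library left out, the ranges that crossed 0 were, for day 3 against day 1, Tdrd5 (-0.426 to 0.265), Tdrd7 (-0.362 to 0.11), Stk31 (-0.559 to 0.323) and Rnf17 (-0.899 to 0.188), for day 7 against day 1 Tdrd9 (-0.15 to 0.595), for leptotene/zygotene against day 7 Tdrd5 (-0.0563 to 0.909), Tdrkh (-0.282 to 0.0974) and Stk31 (-0.312 to 0.198), and for pachytene against leptotene/zygotene Tdrd6 (-0.337 to 0.236) and Rnf17 (-0.355 to 0.291). Levels in CPM were 1.34, 1.33, 1.37, 0.529 and 0.774 times those on the TMM scale with plain library sizes, in the order of the stages. They were 0.9 times at day 7 and 1.09 in pachytene with median-ratio factors, and 1.07 at day 7 and 0.9 in pachytene with upper-quartile factors. Only levels that moved by more than the replicate spread of their stage are listed. The leptotene/zygotene level also depends on these 2 scalings. They moved the median log2 fold change of all genes from day 7 to leptotene/zygotene by 0.318 and -0.388.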
